A study of Mus musculus with 30 samples.

Results

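Of the 55573 rows in each deposited table, 9 genes of the type I interferon response were followed in *Mertk* knockout mice: the transcription factors *Irf7*, *Irf9*, *Irf1* and *Stat2*, the nucleic acid sensors *Ifih1*, *Dhx58* and *Zbp1*, and the tripartite motif proteins *Trim30a* and *Trim25*. They were chosen by symbol. RNA had been sequenced from the retinal pigment epithelium (RPE, the pigmented layer behind the photoreceptors) of mice at P25 and from bone marrow-derived macrophages (BMDMs) of adult mice, grown from marrow in medium conditioned by L929 cells, with 30 libraries in all. The RPE had 6 libraries each of B6 WT and *Mertk*-/-V1 mice and 3 libraries each of *Mertk*-/-V2 and *Mertk*-/-V3 mice, and the BMDMs had 3 libraries of each genotype. B6 WT mice were C57BL/6 wild-type. *Mertk*-/-V1 mice lack a kinase-domain exon, carry a neomycin cassette and retain, on chromosome 2, a segment from the strain of the embryonic stem cells in which the allele was made. In *Mertk*-/-V2 mice another kinase-domain exon was excised by a tamoxifen-driven Cre that was then bred out, and in *Mertk*-/-V3 mice a pair of early exons was deleted with CRISPR/Cas9. The labels give C57BL/6J as the strain of every sample, no sex and no further treatment of the RPE. Per the study's methods, however, part of the *Mertk*-/-V2 genome and a larger part of the *Mertk*-/-V3 genome came from the substrain C57BL/6NJ. In comparisons of these lines substrain and knockout cannot be told apart. Nor can the chromosome 2 segment and the knockout in comparisons of *Mertk*-/-V1 with B6 WT mice. Nothing in the labels ties the replicates to separate litters or cultures beyond the term biological replicate.

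Type I interferon binds its receptor and activates STAT2, which joins IRF9 in a complex that binds the interferon-stimulated response element (ISRE) of its target genes. IRF7 drives further interferon production, and IRF1 is induced mainly by interferon gamma through a GAS element. MDA5, the product of *Ifih1*, senses long double-stranded RNA, LGP2, the product of *Dhx58*, modulates it, ZBP1 binds Z-form nucleic acid and can trigger necroptosis, TRIM25 is a ubiquitin ligase of the RIG-I pathway and TRIM30 restrains NF-kappaB signalling. Most of these genes are themselves induced by interferon, and their level is read in many tissues as a sign of the response.

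Promoter stretches are shown for the members in which a search found an interferon-type motif upstream of the start, with the motif in capitals. RefSeq windows (GRCm38.p6, from 250 bases before to 50 after a start) were present for 7 of the 9 members. The ISRE core was searched as TTTC, any 2 bases and TTTC, on both strands, and the GAS element as TTCNNNGAA, which is its own reverse complement. The stretches are given 5′ to 3′ on the strand of the gene: *Trim30a* at chr7:104465194-104465343 (minus strand), *Stat2* at chr10:128270248-128270397 (plus strand) and *Irf1* at chr11:53769864-53770013 (plus strand).
Trim30a: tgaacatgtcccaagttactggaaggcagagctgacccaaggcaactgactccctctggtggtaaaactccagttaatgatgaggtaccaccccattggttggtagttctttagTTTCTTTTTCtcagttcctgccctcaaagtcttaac
Stat2: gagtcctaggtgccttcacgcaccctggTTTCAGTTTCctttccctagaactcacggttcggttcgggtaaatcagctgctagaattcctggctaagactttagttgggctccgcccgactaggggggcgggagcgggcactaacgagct
Irf1: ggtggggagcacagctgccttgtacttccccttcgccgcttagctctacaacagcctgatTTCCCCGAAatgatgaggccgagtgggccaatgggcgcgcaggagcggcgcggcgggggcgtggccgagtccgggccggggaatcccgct

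The *Trim30a* match TTTCTTTTTC lay 36 to 27 bases before the start, that of *Stat2* 222 to 213 bases before it, and the GAS match TTCCCCGAA of *Irf1* 90 to 82 bases before it. *Ifih1* held the ISRE letters 32 bases after its start. The windows of *Irf7*, *Irf9* and *Trim25* held neither set of letters, and *Dhx58* and *Zbp1* had no window. Among 32851 windows of the same length, 3.44% held the ISRE core and 8.30% the GAS letters. A match is a description of the letters and not a site of binding.

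The values are normalized counts, the reads of a gene divided by a single size factor for each library, and fold changes are on the scale of log2 (value + 1). A gene was called when its limma p, adjusted over all genes tested, was under 0.05. The libraries held 14137666 to 34124049 reads in RPE and 16629659 to 25653814 in BMDMs. All 9 members had a mean of at least 10 in both tissues and entered the tests. *Mertk* itself ranged from 2638 to 3924 in B6 WT RPE, from 919 to 1717 in the libraries labelled *Mertk*-/-V1 and from 444 to 1106 in those labelled *Mertk*-/-V3. In those labelled *Mertk*-/-V2 it was 3565 to 5311, and counts over the whole gene do not check the loss of a single exon. The summed counts of 8 RPE markers were lowest in 3 RPE libraries, *Mertk*-/-V1 replicates 6 (135108) and 5 (188249) and *Mertk*-/-V3 replicate 1 (189838), with 299287 to 571410 in the other 15. These 3 held 374592 to 797045 summed counts of 7 rod photoreceptor genes, with 29289 to 308512 in the others. Short exon stretches of *Irf7*, *Irf1* and *Dhx58* overlap a gene on the opposite strand (45, 135 and 141 bases), and whether counting used strand is not given in the sources used here. Defining markers fitted the labels of the tissues, with the RPE genes *Rpe65*, *Lrat* and *Tyr* at 0 in all 12 BMDM libraries. In these bulk samples fewer cells of a type and less RNA per cell cannot be told apart.

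In B6 WT mice the order of the members was alike at the top and differed below it. Per kilobase of exon, *Trim25* had the highest level in both tissues, at 482 ± 87.7 normalized counts per kb in RPE (SD, n = 6) and 605 ± 35.8 in BMDMs (SD, n = 3). In RPE *Irf1* followed at 410.5 ± 169, within the spread of *Trim25*, then *Stat2* at 237 ± 15.5, *Irf9* at 190.0 ± 15.1, *Irf7* at 133 ± 28.6 and *Ifih1* at 86.0 ± 21.4. *Trim30a* (32.7 ± 4.95), *Dhx58* (28.5 ± 4.42) and *Zbp1* (20.8 ± 8.47) stood last and lay within each other's spread. In BMDMs the second place was held by *Trim30a* at 320.3 ± 39.9, followed by *Stat2* at 229 ± 30.9, *Irf9* at 175 ± 12.7, *Dhx58* at 156 ± 4.83, *Irf1* at 131 ± 8.05, *Ifih1* at 68.3 ± 8.22, *Irf7* at 54.7 ± 18.6 and *Zbp1* at 16.1 ± 2.65. *Ifih1* and *Irf7* did not differ there beyond their spread.

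Direct comparison of B6 WT RPE with B6 WT BMDMs, in CPM (reads scaled to the total of a library as adjusted by TMM) over all 30 libraries, called 6 of 9 members, against 86.5% of all 19739 genes. *Trim30a* was at 5.21 ± 0.757 CPM in RPE and 66.6 ± 7.80 CPM in BMDMs, a log2 difference of -3.68 (edgeR adjusted p = 2.31e-15). *Dhx58* was at 3.63 ± 0.603 CPM in RPE and 25.8 ± 0.671 CPM in BMDMs, a log2 difference of -2.83 (edgeR adjusted p = 3.34e-14). The other 4 calls were smaller: *Trim25* (-0.71) and *Stat2* (-0.33) were lower in RPE, and *Irf1* (1.27) and *Irf7* (0.90) were higher there. *Irf9*, *Ifih1* and *Zbp1* did not pass the test, with log2 differences of -0.26, -0.04 and 0.01. Leaving out a single library moved the number of called members between 5 and 7, with *Irf7* reaching an adjusted p of 0.0522, *Stat2* 0.157 and *Irf9* as low as 0.0144. The Y-linked *Ddx3y* had 1974 to 3009 normalized counts in the 18 RPE libraries and 0 in the 12 BMDM libraries, so tissue and sex of the mice cannot be told apart.

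In *Mertk*-/-V1 RPE the members of the interferon complex and *Trim30a* were higher than in B6 WT RPE. All 9 members had a positive log2 fold change and 4 were called, *Trim30a*, *Irf9*, *Stat2* and *Dhx58*, against 0.388% of the 18832 genes tested. The median log2 fold change was 0.58 over the members and 0.02 over all genes tested, 53.8% of which had a positive value. The 6 *Mertk*-/-V1 libraries lay above all 6 B6 WT libraries in these 4 members, which was so for 0.568% of all genes.

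*Trim30a*, whose product restrains NF-kappaB signalling, moved most. It ranged from 112 (median 133) to 163 in B6 WT RPE and from 282 (median 333) to 409 in *Mertk*-/-V1 RPE. The log2 fold change was 1.34 ± 0.16 (SE), with an adjusted p of 4.39e-04. It was the sole member that also passed the fold threshold that the study set, as 0.149% of all genes did. Its relatives *Trim30b*, *Trim30c* and *Trim30d* may share reads with it, since the way reads were assigned is not given in the sources used here. *Trim30d*, looked at after its values were seen, ranged from 94.4 to 179.5 in B6 WT and from 168 to 317 in *Mertk*-/-V1 RPE, a log2 fold change of 0.84 ± 0.21 (adjusted p = 0.135).

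*Irf9*, the DNA-binding subunit of the complex, ranged from 859.7 (median 1052) to 1075 in B6 WT RPE and from 1274 (median 1526) to 1783 in *Mertk*-/-V1 RPE. It rose by a log2 fold change of 0.58 ± 0.10 (adjusted p = 0.0104). A short stretch of its exons, 2.3% of their length, is shared with *Rnf31* on the same strand. *Stat2*, its partner, ranged from 1279 (median 1403) to 1543 in B6 WT and from 1756 (median 1919) to 2133 in *Mertk*-/-V1 RPE, a rise of 0.46 ± 0.09 on the log2 scale (adjusted p = 0.0275). *Dhx58* ranged from 83.2 (median 89.3) to 122 in B6 WT and from 124 (median 160.0) to 193 in *Mertk*-/-V1 RPE, a rise of 0.76 ± 0.14 (adjusted p = 0.0206). The highest B6 WT library and the lowest *Mertk*-/-V1 library of *Dhx58* were close. With a single library left out in turn, *Trim30a* and *Irf9* were called in 12 of 12 fits, *Dhx58* in 5 (adjusted p up to 0.0581) and *Stat2* in 2 (adjusted p up to 0.0814).

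*Irf7* ranged from 353 (median 519.7) to 638 in B6 WT RPE and from 619.6 (median 833) to 1048 in *Mertk*-/-V1 RPE, and 5 of the 6 *Mertk*-/-V1 libraries lay above every B6 WT library. Its log2 fold change of 0.77 ± 0.17 missed the threshold (adjusted p = 0.0597). It passed with the replicate number as a block (adjusted p = 0.016), although the numbers were not shown to pair single libraries. The remaining members were *Zbp1* at 0.59 ± 0.30, *Ifih1* at 0.36 ± 0.20, *Irf1* at 0.20 ± 0.32 and *Trim25* at 0.06 ± 0.18, with adjusted p-values of 0.742 to 0.959. *Irf1* overlapped widely, at 851 to 2737 in B6 WT and 864 to 2652 in *Mertk*-/-V1 RPE. *Trim25* did too, and 2 *Mertk*-/-V1 libraries, replicates 5 and 6, lay below every B6 WT library.

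**Figure D1:**
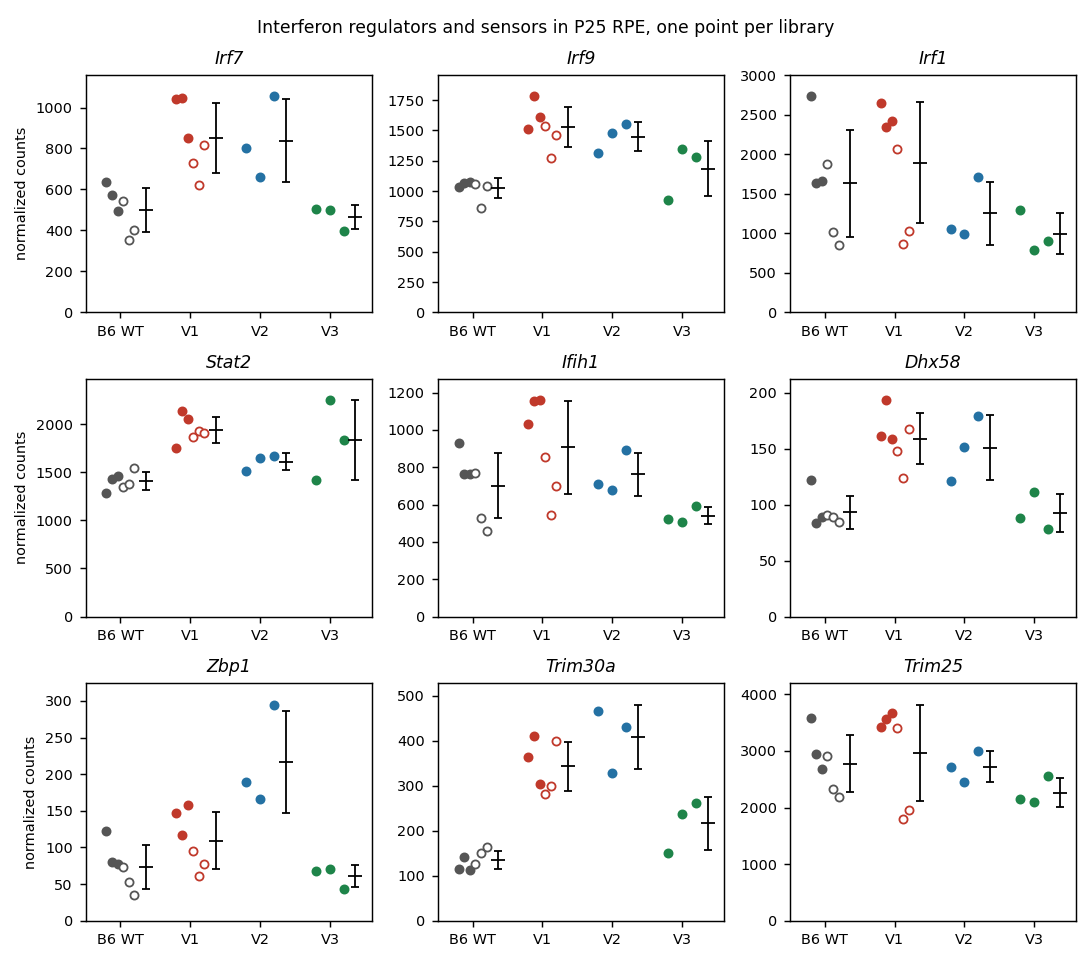
Normalized counts of the 9 members in P25 RPE, with a panel for each gene, genotype on the x axis, a point for each library (filled for replicates 1 to 3, open for replicates 4 to 6) and the mean ± SD as a black bar beside the points. *Trim30a*, *Irf9*, *Stat2* and *Dhx58* show no overlap between the 6 B6 WT and the 6 *Mertk*-/-V1 libraries, whereas *Irf1*, *Ifih1* and *Trim25* spread widely within both.

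Part of the spread of *Irf7*, *Irf1*, *Ifih1*, *Zbp1* and *Trim25* went with the replicate number in *Mertk*-/-V1 RPE, where replicates 1 to 3 all lay above replicates 4 to 6. In B6 WT RPE this held for *Zbp1* alone. The share of all genes with such a split was not computed. For *Trim25* in *Mertk*-/-V1 RPE the sets barely parted, with replicate 1 at 3426 and replicate 4 at 3401. Replicates 5 and 6, which were low in RPE markers, were at 1793 and 1957. In *Mertk*-/-V1 RPE *Irf1* averaged 2473 ± 161 (SD, n = 3) in replicates 1 to 3 and 1320.2 ± 655 (SD, n = 3) in replicates 4 to 6, of which replicate 4 was at 2070.3 and replicates 5 and 6 at 864 and 1027, and in B6 WT RPE 2012 ± 628 and 1252 ± 552. *Ifih1* averaged 1113 ± 72.9 and 699 ± 155 in the *Mertk*-/-V1 sets and 819 ± 93.9 and 585 ± 163 in the B6 WT sets. *Trim30a*, by contrast, averaged 359 ± 53.6 and 327 ± 62.9 in the *Mertk*-/-V1 sets. The labels do not say what sets replicates 1 to 3 apart from 4 to 6, and only these 2 genotypes have both sets.

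Across the 18 RPE libraries *Irf1*, *Ifih1* and *Trim25* followed each other, with a Pearson correlation of log2 values of 0.89 for *Irf1* and *Ifih1* and 0.90 for *Irf1* and *Trim25*. With the genotype means removed these were 0.92 and 0.90. *Irf1* and *Trim30a* had a correlation of -0.07, and *Irf9* and *Trim30a* one of 0.85 that was 0.37 with the genotype means removed. The summed rod genes had correlations of -0.85 with *Trim25*, -0.69 with *Irf1* and -0.68 with *Ifih1*, and of 0.12 with *Trim30a*, 0.05 with *Stat2* and -0.22 with *Irf9*. The points share their library and its size factor, and the part of rod transcripts in these members was not tested.

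Within replicates 1 to 3, where *Mertk*-/-V1 and B6 WT RPE have 3 libraries each, the log2 fold changes were 1.54 for *Trim30a*, 0.62 for *Irf9*, 0.51 for *Stat2*, 0.81 for *Dhx58* and 0.79 for *Irf7*, of which *Trim30a* was called (adjusted p = 0.0313). Within replicates 4 to 6 they were 1.15, 0.53, 0.42, 0.72 and 0.75, and none was called (adjusted p = 0.562 for each), with 1 gene called among all 18832. The direction and size were thus similar in both sets. Without the 3 libraries that were lowest in RPE markers, *Trim30a* (1.33), *Irf9* (0.66), *Stat2* (0.47), *Dhx58* (0.83) and *Irf7* (0.89) were all called, among 105 of all genes. The log2 fold changes of *Zbp1*, *Irf1*, *Ifih1* and *Trim25*, none of them called, were then 0.89, 0.64, 0.61 and 0.36.

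**Figure D2:**
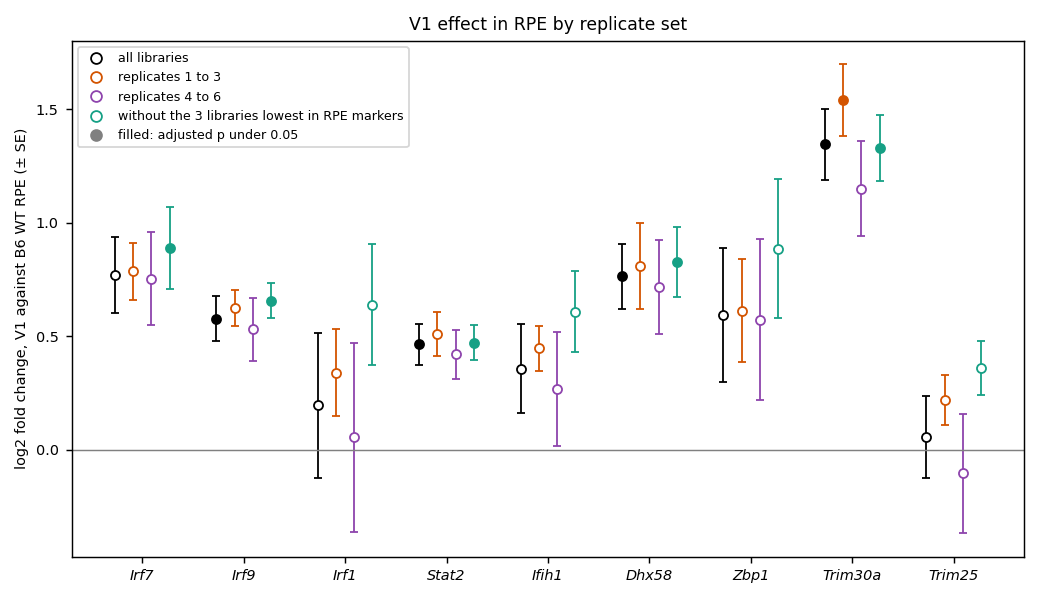
Log2 fold change of *Mertk*-/-V1 against B6 WT RPE (y axis, ± SE) for the 9 members with all libraries, with replicates 1 to 3, with replicates 4 to 6 and without the 3 libraries lowest in RPE markers, filled where the adjusted p was under 0.05. *Trim30a*, *Dhx58*, *Irf7*, *Irf9* and *Stat2* keep a positive value in each, while *Trim25* falls to -0.10 within replicates 4 to 6.

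Macrophage genes were read in the same libraries. Of 12 macrophage markers, 3 were called higher in *Mertk*-/-V1 RPE, *Fcgr1* (1.13 ± 0.18), *C1qb* (1.02 ± 0.17) and *C1qa* (1.04 ± 0.21), when 0.388% of all genes were called. The list median was 0.85, and 0.02 over all genes. There 11 of 12 were higher and 10 had an unadjusted p under 0.05, beside 6.81% of all genes. The summed level of the list overlapped, from 8059.6 to 13341 in B6 WT and from 7322 to 12366 in *Mertk*-/-V1 RPE, and no marker was at 0. In *Mertk*-/-V2 RPE the list median was 0.61, with 11 of 12 markers higher, and in *Mertk*-/-V3 RPE 0.55, with 8 of 12 higher. None was called in either, and 7 and 6 had an unadjusted p under 0.05, beside 5.47% and 11.1% of all genes. With that sum as a covariate the log2 fold changes in *Mertk*-/-V1 were 1.36 for *Trim30a*, 0.60 for *Irf9* and 0.48 for *Stat2*. For *Dhx58* and *Irf7* they were 0.77 and 0.80. The median of the sum was 10871 for *Mertk*-/-V1 libraries, against 10397 for the wild type, although 11 of 12 markers were higher. The sum thus hardly carried the rise of the single markers and cannot adjust for it. The part of macrophages in the members was not tested. Of the 4 plasmacytoid dendritic cell markers, 2 had a mean under 10, and their sum ranged from 73.8 to 107 in B6 WT and from 109.8 to 128 in *Mertk*-/-V1 RPE. The part of these cells was not tested further.

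Other genes of the pathway in *Mertk*-/-V1 RPE were read from fixed lists, in a comparison that called 0.388% of all genes. Among 28 receptors, kinases, adaptors and further sensors 22 had a positive log2 fold change (median 0.12), none was called lower, and those called higher included *Tlr7*, an endosomal sensor of single-stranded RNA (1.08 ± 0.22), and *Irf8*, a factor of myeloid cells (0.88 ± 0.18). Of 13 tested negative regulators 11 had a positive value (median 0.22) and 2 were called higher, *Socs3* (1.52 ± 0.24) and *Usp18* (0.83 ± 0.17), both inhibitors of cytokine receptor signalling. Of 30 interferon-stimulated effector genes 9 were called higher and none lower, led by *Mx1* (1.90 ± 0.31), *Ifit1* (1.52 ± 0.19) and *Ifi44* (1.42 ± 0.22), with a list median of 0.69. Among 12 tested relatives of the TRIM members 9 had a positive value (median 0.19), none was called and 1 had an unadjusted p under 0.05, beside 6.81% of all genes.

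In *Mertk*-/-V2 RPE *Trim30a* was higher and 1 of 9 members was called, against 0.069% of all genes. Its values were 467, 328 and 430.1, all above the highest B6 WT library (163), with a log2 fold change of 1.59 ± 0.19 (adjusted p = 9.51e-04). It was called in 9 of 9 fits with a library left out. With only B6 WT replicates 4 to 6 as control the adjusted p was 0.0627, at a log2 fold change of 1.47. *Zbp1*, the Z-nucleic acid sensor, was at 189, 165 and 295 in *Mertk*-/-V2 and at 34.5 to 123 in B6 WT RPE (median 75.4), so that these groups did not overlap either. Its log2 fold change of 1.61 ± 0.36 did not pass the test (adjusted p = 0.263).

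*Irf9* (1317, 1476 and 1553) and *Irf7* (802, 659 and 1055) also lay above all B6 WT libraries, with log2 fold changes of 0.50 ± 0.12 and 0.75 ± 0.20 that did not pass. Without the 3 libraries lowest in RPE markers, none of them *Mertk*-/-V2 or B6 WT, *Irf9* passed (adjusted p = 0.0403). Its fold change rests on the same libraries as before, and only the spread shared by the model differs. In a limma fit of only these groups the adjusted p of *Irf9* was 0.183. *Dhx58* (122, 152 and 179.8) had 2 of 3 libraries above them, at 0.69 ± 0.17. In all, 4 members did not overlap, a pattern found upward in 3.72% of all genes. *Stat2* (0.20), *Ifih1* (0.15), *Trim25* (-0.01) and *Irf1* (-0.32) were within 2 SE of 0. *Mertk*-/-V2 RPE has replicates 1 to 3 alone. With B6 WT replicates 1 to 3 as control *Ifih1* was at -0.11, *Irf1* at -0.68 and *Zbp1* at 1.20, and with replicates 4 to 6 at 0.40, 0.05 and 2.01, none of them called. The median over the members was 0.50, and 0.02 over all genes. Of the effector genes 5 of 30 were called higher, when 0.069% of all genes were called. They were led by *Ifi27l2a* (2.27 ± 0.32), *Ifi44* (2.00 ± 0.27) and *Isg15* (1.93 ± 0.32), a ubiquitin-like modifier. Among upstream genes 3 of 28 and among negative regulators 2 of 13 had an unadjusted p under 0.05, beside 5.47% of all genes, and none an adjusted one.

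In *Mertk*-/-V3 RPE no member was called by limma, edgeR or DESeq2, and 0.069% of all genes were called. An unadjusted p under 0.05 was found for 2 members and 11.1% of all genes. Those 2 were *Trim30a*, at 149, 238 and 261 with a log2 fold change of 0.66 ± 0.19 (adjusted p = 0.441), and *Stat2*, at 1422, 2247 and 1831 with 0.36 ± 0.11 (adjusted p = 0.448). In both, replicates 2 and 3 lay above every B6 WT library and replicate 1, which was low in RPE markers, among them. Without the 3 libraries lowest in RPE markers the log2 fold changes were 0.90 for *Trim30a* (adjusted p = 0.0848), 0.53 for *Stat2* (adjusted p = 0.059) and 0.37 for *Irf9* (0.20 with them). *Irf7* (503, 499 and 396), *Dhx58* (88.1, 111 and 78.7) and *Zbp1* (68.0, 71.1 and 43.2) were within the B6 WT range or below it. The median over the members was -0.08 and that over all genes -0.01. *Irf1* was at 1289.6, 796 and 898, a log2 fold change of -0.64 ± 0.39 (adjusted p = 0.497). *Mertk*-/-V3 RPE has replicates 1 to 3 alone, and the change in *Irf1* was -1.004 with only the first 3 B6 WT libraries as control and -0.28 with only the last 3. With the replicate set as a term in the model, *Irf1* (-1.08) and *Ifih1* (-0.64) were called lower and *Trim30a* (0.69) and *Stat2* (0.36) higher, among 4749 genes called in all.

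**Figure D3:**
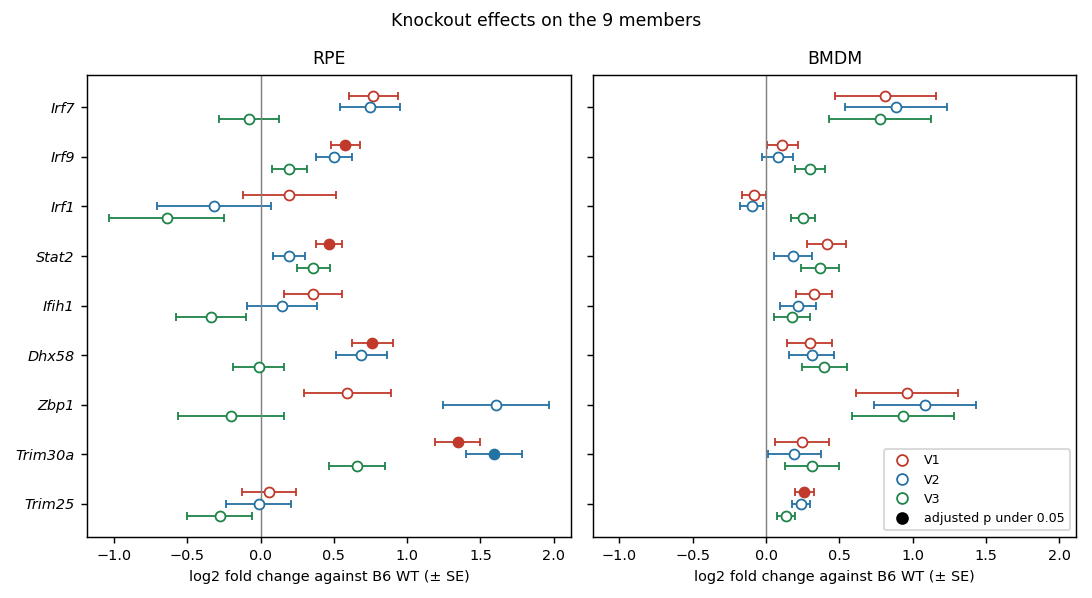
Log2 fold change against B6 WT (x axis, ± SE) of the 9 members in the 3 knockouts, in RPE (left) and in BMDMs (right), with *Mertk*-/-V1 in red, *Mertk*-/-V2 in blue and *Mertk*-/-V3 in green, filled where the adjusted p was under 0.05. In RPE *Trim30a* lies at 1.34, 1.59 and 0.66, and in BMDMs at 0.25, 0.19 and 0.31. The 3 comparisons of a tissue share their B6 WT libraries.

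Between the knockouts no member was called in RPE. Set against the average of the other knockouts, 8 of 9 members were higher in *Mertk*-/-V1 RPE, with a median log2 difference of 0.23 and 0.01 over all genes, and limma called 0.207% of all genes. An unadjusted p under 0.05 was found for 5 members and 9.56% of all genes, and edgeR and DESeq2 called 0 members as well. *Irf1* differed most (0.68 ± 0.32), followed by *Ifih1* (0.45 ± 0.20), *Irf7* (0.44 ± 0.17) and *Dhx58* (0.43 ± 0.14), whereas *Trim30a* differed by 0.22 ± 0.16 and *Zbp1* by -0.11 ± 0.30. Within replicates 1 to 3 of every genotype, the set that all genotypes have, *Irf1* (1.18, adjusted p = 0.014), *Ifih1* (0.80, adjusted p = 0.005), *Irf7* (0.66, adjusted p = 0.024) and *Trim25* (0.52, adjusted p = 0.016) were called, as were 2134 of all 18832 genes. *Irf1* and *Trim25* were thus higher in *Mertk*-/-V1 than in the other knockouts in that set, and also without the 3 libraries lowest in RPE markers (1.22, adjusted p = 0.0401, and 0.49, adjusted p = 0.0492, with 687 of all genes called), although neither passed against B6 WT within replicates 1 to 3 (adjusted p = 0.714 and 0.682).

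*Mertk*-/-V2 and *Mertk*-/-V3 RPE did not overlap in 5 members, all higher in *Mertk*-/-V2, as for 12.7% of all genes: *Zbp1* (log2 difference 1.80 ± 0.42), *Trim30a* (0.94 ± 0.22), *Irf7* (0.83 ± 0.24), *Dhx58* (0.70 ± 0.20) and *Ifih1* (0.49 ± 0.28). None was called by limma (adjusted p = 0.134 and above), when 0.0743% of all genes were. An unadjusted p under 0.05 was found for 5 members and 12.6% of all genes. edgeR called 0 and DESeq2 called 3, *Zbp1*, *Trim30a* and *Irf7*. Of the effector genes 1 of 30 was called, *Ifi27l2a* (2.42 ± 0.37).

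In *Mertk*-/-V1 BMDMs 8 of 9 members were higher than in B6 WT BMDMs and 1 was called, *Trim25*, when 7.07% of the 13420 genes tested were. *Trim25* was at 3284, 3467 and 3696 in B6 WT and at 3980.0, 4331 and 4200.0 in *Mertk*-/-V1 BMDMs, a rise of 0.26 ± 0.06 on the log2 scale (adjusted p = 0.0284). The adjusted p was 0.139 at most with a single library left out and under 0.05 in 2 of 6 such fits. *Zbp1* was at 46.9, 57.9 and 65.5 in B6 WT and at 112, 109 and 110.2 in *Mertk*-/-V1 BMDMs, with 0.96 ± 0.35 (adjusted p = 0.11). *Stat2* was at 1252, 1245 and 1566 and at 1763, 1766 and 1849, with 0.41 ± 0.13 (adjusted p = 0.0731).

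*Zbp1*, *Stat2*, *Ifih1* (0.33), *Dhx58* (0.30) and *Trim25* did not overlap between these groups, 5 of 9 members against 15.4% of all genes. *Irf7* was at 185, 149.98 and 285 in B6 WT and at 284, 365 and 417 in *Mertk*-/-V1 BMDMs (0.81 ± 0.35, adjusted p = 0.173). *Irf9* (0.11), *Trim30a* (0.25) and *Irf1* (-0.08) were within 2 SE of 0. The median over the members was 0.30, and 0.00 over all genes. In a fit of only these 2 groups, which called 1298 of the 13420 genes, 6 members were called, the 5 above and *Irf7*. In these 6 members the SD was larger in *Mertk*-/-V2 and *Mertk*-/-V3 than in B6 WT and *Mertk*-/-V1 BMDMs. For *Zbp1* it was 59.9 and 57.6 against 9.35 and 1.29. The full fit shares its spread over all 4 genotypes, and the reason for the added calls was not tested.

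In *Mertk*-/-V2 BMDMs no member was called by limma, when 4.61% of all genes were, and 3 members had an unadjusted p under 0.05, as 21.4% of all genes did. edgeR called *Trim25* and DESeq2 called *Zbp1* and *Trim25*. *Zbp1* was at 183, 144 and 65.5, *Irf7* at 564, 408 and 218, and *Trim30a* at 2091, 1514 and 1063, with log2 fold changes of 1.08 ± 0.35, 0.88 ± 0.35 and 0.19 ± 0.18. Replicate 3 was the lowest of the group in all 3 and lay below every B6 WT library in *Trim30a*. Without it, when 1166 of the 13420 genes were called, 4 members were, *Zbp1* (1.52), *Irf7* (1.26), *Dhx58* (0.53) and *Trim25* (0.28).

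In *Mertk*-/-V3 BMDMs all 9 members were higher than in B6 WT BMDMs and none was called by limma or edgeR, with 1.17% of all genes called. DESeq2 called *Zbp1*, and 6 members had an unadjusted p under 0.05, as 15.9% of all genes did. *Zbp1* was at 71.0, 98.1 and 182 and *Irf7* at 272, 257 and 571, with log2 fold changes of 0.93 ± 0.35 and 0.78 ± 0.35. Replicate 3 was the highest of the group in every member. *Irf9* (1182, 1051 and 1239.7), *Irf1* (593, 611 and 661), *Dhx58* and *Zbp1* lay above all B6 WT libraries, as 12.2% of all genes did.

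**Figure D4:**
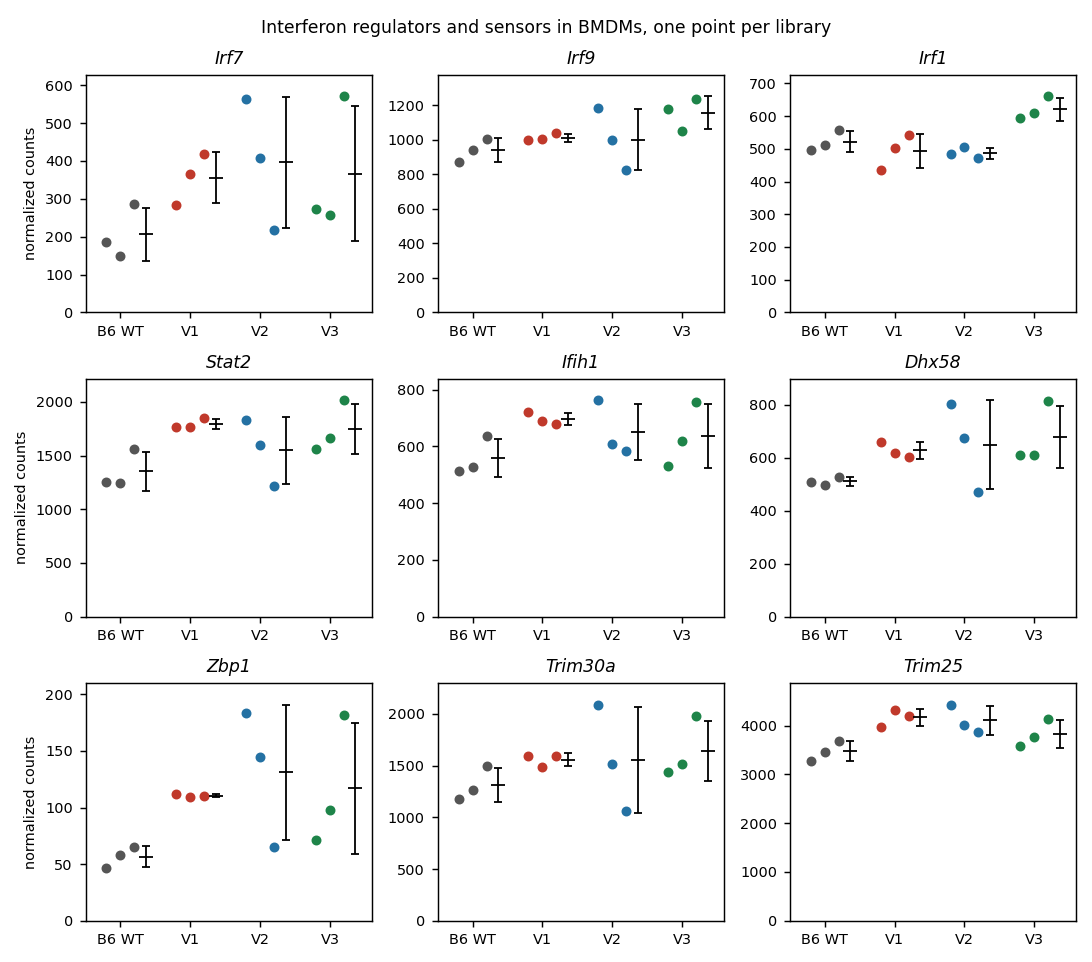
Normalized counts of the 9 members in BMDMs, with a panel for each gene, genotype on the x axis, a point for each library and the mean ± SD as a black bar. The 3 *Mertk*-/-V1 libraries of *Zbp1* lie between 109 and 112, while the *Mertk*-/-V2 libraries range from 65.5 to 183 and the *Mertk*-/-V3 libraries from 71.0 to 182.

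*Irf1* was the sole member that differed between knockouts in BMDMs. Its level was 485, 504 and 471 in the *Mertk*-/-V2 libraries, each below the 593, 611 and 661 of the *Mertk*-/-V3 libraries, a log2 difference of -0.35 ± 0.08 (adjusted p = 0.033), when 3.16% of all genes were called. It was called in 1 of 6 fits with a library left out, with an adjusted p of up to 0.132. Set against the average of the other knockouts, no member was called in *Mertk*-/-V1 BMDMs by limma, edgeR or DESeq2, when limma called 0.991% of all genes. An unadjusted p under 0.05 was found for 1 member and 11.8% of all genes, and the median over the members was -0.02.

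Among the other pathway genes in *Mertk*-/-V1 BMDMs, *Nlrc5*, the activator of MHC class I genes (0.45 ± 0.11), and *Tyk2*, a kinase of the interferon receptor (0.26 ± 0.05), were called higher and *Irf5* lower (-0.20 ± 0.05) of 28 upstream genes, and *Tnfaip3* higher (0.37 ± 0.07) of 12 tested negative regulators. Beside the 7.07% of all genes called, these counts and the next are near the background. Of 30 effector genes 2 were called higher, *Mx1* (1.67 ± 0.39) and *Ifit1* (1.55 ± 0.41), with a list median of 0.65. In *Mertk*-/-V2 BMDMs *Ticam1*, the adaptor of TLR3, was lower (-0.33 ± 0.07), as 1 of 28 upstream genes called, when 4.61% of all genes were. *Ticam1* was also lower in *Mertk*-/-V2 than in *Mertk*-/-V3 BMDMs (-0.45 ± 0.07), as were *Rnf135* (-0.41 ± 0.10) and *Mavs*, the adaptor of MDA5 and RIG-I (-0.25 ± 0.06). These were 3 of 28, when 3.16% of all genes were called. The median over the effector genes was 0.56 for *Mertk*-/-V2 BMDMs and 0.60 for *Mertk*-/-V3 BMDMs with none called. Of these genes 10 and 14 had an unadjusted p under 0.05, beside 21.4% and 15.9% of all genes. *Trim14* (0.37 ± 0.08) was the sole TRIM relative called, in *Mertk*-/-V3 BMDMs, when 1.17% of all genes were. The summed macrophage markers were alike, from 311415 to 342305 over the 12 libraries, although *C1qa* was lower in *Mertk*-/-V1 (-0.39 ± 0.06) and *Mertk*-/-V3 BMDMs (-0.31 ± 0.06), and the summed immediate early genes were lower in *Mertk*-/-V1 (8977 to 9714) and *Mertk*-/-V2 (9729.8 to 10055) than in B6 WT BMDMs (14492 to 15957), whose part in the members was not tested.

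**Figure D5:**
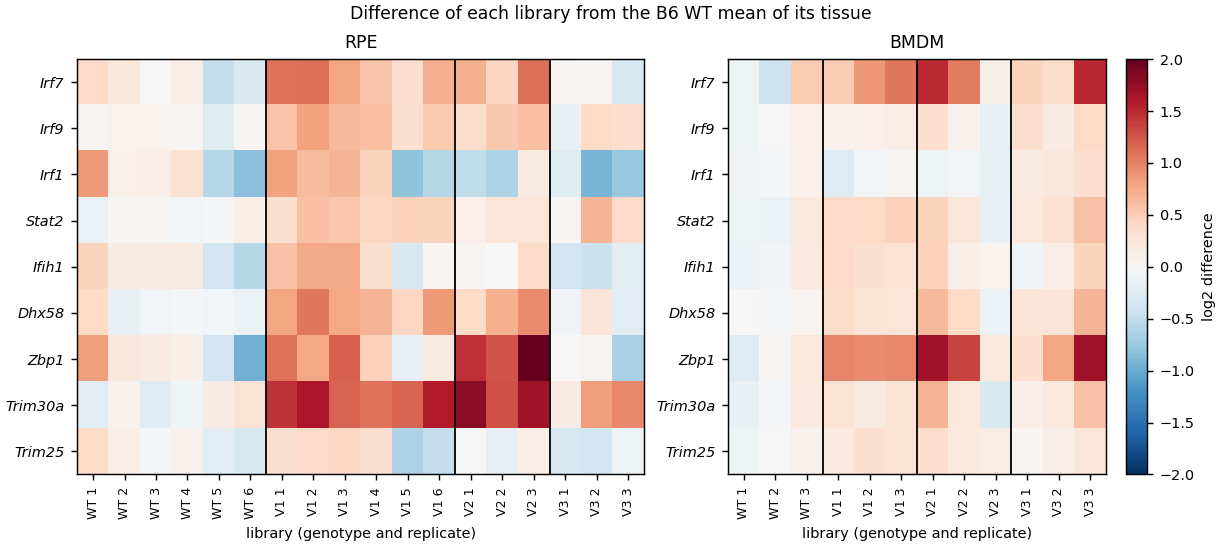
Difference of each library (x axis) from the B6 WT mean of its tissue, on the log2 scale, for the 9 members (y axis), in RPE (left) and BMDMs (right), with genotypes divided by black lines. In RPE *Trim30a* is above the B6 WT mean in all 12 knockout libraries, and in BMDMs *Mertk*-/-V2 replicate 1 and *Mertk*-/-V3 replicate 3 stand highest, with means over the members of 0.67 and 0.72.

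Averaged over the 9 members, the BMDM libraries were 0.33 to 0.42 above the B6 WT mean on the log2 scale for *Mertk*-/-V1. They were at 0.67, 0.40 and -0.04 for *Mertk*-/-V2 and at 0.21, 0.29 and 0.72 for *Mertk*-/-V3. In RPE the same means were 0.09 to 0.86 for *Mertk*-/-V1, 0.49, 0.41 and 0.82 for *Mertk*-/-V2 and -0.11, 0.06 and -0.06 for *Mertk*-/-V3. The B6 WT libraries themselves ranged from -0.29 to 0.33 in RPE and from -0.11 to 0.19 in BMDMs.

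The difference of the knockout effects between RPE and BMDMs was tested in a single edgeR model, in which 0.177% of 19739 genes were called for *Mertk*-/-V1, 0.0456% for *Mertk*-/-V2 and 0.0203% for *Mertk*-/-V3, and no member for any. For each knockout 2 members had an unadjusted p under 0.05, against 6.98%, 8.26% and 5.04% of all genes. *Trim30a* came nearest, with an effect larger in RPE by 1.12 on the log2 scale for *Mertk*-/-V1 (adjusted p = 0.0985) and by 1.37 for *Mertk*-/-V2 (adjusted p = 0.0775). DESeq2 called *Trim30a* for both and no member for *Mertk*-/-V3. For *Mertk*-/-V3 *Zbp1* (-1.35), *Irf1* (-0.99) and *Irf7* (-0.96) had the most negative differences (adjusted p = 0.91).

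The genes most like the members, by Pearson correlation with their mean standardized log2 value, were *Usp18* (0.90), *Ifitm3* (0.90), *Irgm1* (0.90), *Herc6* (0.89) and *Ifit3* (0.88) over the 18 RPE libraries and *Lgals3bp*, *Rtp4*, *Oas2* (0.97 each), *Oasl2* (0.96) and *Ifit3* (0.96) over the 12 BMDM libraries. Libraries share a size factor and a genotype, so these are descriptions. Of the members, *Ifih1* (62595798 to 62646255) and *Zbp1* (173206612 to 173218923) lie on chromosome 2 with *Mertk* (128698956 to 128802894), in GRCm38. Neither was called in *Mertk*-/-V1 RPE or BMDMs in the model of all 4 genotypes. *Ifih1* was called in RPE with rod genes as a covariate (0.45, adjusted p = 0.0215), and both were called in BMDMs in the fit of B6 WT and *Mertk*-/-V1 alone. *Irf1* (53770014 to 53778374), *Trim25* (88999376 to 89020293) and *Dhx58* (100694884 to 100704271) lie on chromosome 11, *Trim30a* (104409025 to 104465193) and *Irf7* (141262706 to 141266481) on chromosome 7, *Stat2* (128270559 to 128292849) on chromosome 10 and *Irf9* (55603571 to 55610030) on chromosome 14.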

How the data were processed

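RNA-seq libraries of RPE and BMDMs were compared. Per the study's methods, reads were trimmed with btrim and mapped to GRCm38 (mm10) with STAR, and gene counts were divided by DESeq2 size factors. The authors deposited a table of this signal (normalized counts) for each tissue. The read counter, the annotation and the versions of the authors' tools are not given in the sources used here. All values were whole multiples of the value of 1 read (100% within 0.001), so the reads were recovered. The members and lists were chosen with earlier results of these data known. Samples were grouped by their labels.

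The main test was limma 3.58.1 (eBayes with a trend, R 4.3.3) on log2 (value + 1) for genes averaging 10 or more, with 4 genotypes of a tissue in a model and Benjamini-Hochberg adjustment, and it was tested on simulated data. Tissues were compared with edgeR 4.0.16 (quasi-likelihood, TMM) on the recovered reads of all 30 libraries. The alternatives included DESeq2 1.42.0, a block, covariates, subsets of the libraries, array quality weights and each library left out. Named genes were the members, the 5 genes most like them, the 3 most changed called genes of each list and *Mertk*. B6 WT and *Mertk*-/-V1 RPE libraries of the same number had correlations of 0.119 to 0.724 between deviations from the group means, over 6 pairs. Libraries of unequal number reached 0.744 (B6 WT replicate 5 with *Mertk*-/-V1 replicate 6), so the numbers were not shown to pair single libraries. In every other pair of groups some same-numbered libraries had a negative correlation. Libraries of a group differed by at least 3.37 times the sampling noise (chi-square per degree of freedom), so none was a copy. A called gene of the pathway list is not reported here. Positions and exon lengths came from GENCODE M21. The p-values measure the spread between these samples.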

Additional observations from a re-analysis of the deposited data

Results flagged for a closer look

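In RPE, 2 of the 18 groups of 6 libraries held a library far from the other 5. For *Irf9* this was B6 WT replicate 5, which at 859.7 normalized counts lay below the other B6 WT libraries, at 1035 to 1075. For *Dhx58* it was B6 WT replicate 1, which at 122 lay above the others, at 83.2 to 90.7. Chance marks about 1 group in 20. Without B6 WT replicate 5 the log2 fold change of *Irf9* in *Mertk*-/-V1 RPE was 0.53 (adjusted p = 0.029), and without B6 WT replicate 1 that of *Dhx58* was 0.84 (adjusted p = 0.013).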

How the results depend on the processing

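Of 2250 recomputed values of 126 gene results, 130 passed the threshold anew and 42 lost it. The sign differed in 108, of which 1 had a call, *Dhx58* in *Mertk*-/-V3 against B6 WT RPE, which was 0.27 with array quality weights (adjusted p = 0.016). Counts of called members are given here as they moved, and the causes were not tested. For *Mertk*-/-V1 against B6 WT RPE (4 called) the count was 1 with replicates 1 to 3 only, 0 with replicates 4 to 6 only, 1 with the fold threshold of the study added and 2 to 4 with a library left out. It was 5 with DESeq2, array weights, the set term, the macrophage covariate or without the 3 libraries lowest in RPE markers, and 6 with rod genes as a covariate, among 202, 151, 139, 460, 105 and 249 of all genes. For *Mertk*-/-V2 against B6 WT RPE (1 called) it was 5 with array weights (861 of 18832 genes called), 3 with DESeq2 (45), 2 without the 3 libraries (18), 3 with the rod covariate (35) and 0 with B6 WT replicates 4 to 6 as control (4). For *Mertk*-/-V3 against B6 WT RPE (0 called) it was 7 with array weights, which called 12592 of all genes, and 4 with the replicate set as a term (4749). For *Mertk*-/-V1 against both other knockouts in RPE (0 called) it was 6 with array weights (5444 of all genes), 4 with the set term (1828), 4 with replicates 1 to 3 of every genotype (2134), 2 without the 3 libraries (687) and 1 with the rod covariate (155). For *Mertk*-/-V2 against *Mertk*-/-V3 RPE (0 called) it was 8 with array weights (9811 of all genes), 3 with DESeq2 (340) and 5 with the rod covariate (1942).

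In BMDMs, *Mertk*-/-V1 against B6 WT (1 called) gave 6 with only these groups (1298 of 13420 genes), 5 with array weights (2766), 3 with DESeq2 (1126), 0 with the fold threshold and 0 to 2 with a library left out. *Mertk*-/-V2 against B6 WT (0 called) gave 3 with array weights (1182 of all genes), 1 with edgeR (607), 2 with DESeq2 (836) and 0 to 4 with a library left out, the 4 without *Mertk*-/-V2 replicate 3 (1166). *Mertk*-/-V3 against B6 WT (0 called) gave 1 with only these groups (561 of all genes), 8 with array weights (1693) and 1 with DESeq2 (403). *Mertk*-/-V2 against *Mertk*-/-V3 (1 called) gave 0 with only these groups, 0 with the fold threshold and 0 to 1 with a library left out. The tissue difference (0 called) gave 1 for *Mertk*-/-V1 with DESeq2 and 0 to 1 with a library left out. For *Mertk*-/-V2 it gave 1 with DESeq2, 1 with RPE replicates 1 to 3 and 0 to 1 with a library left out, and for *Mertk*-/-V3 it gave 3 with RPE replicates 1 to 3.

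With the replicate number as a block, *Mertk*-/-V1 against B6 WT RPE gave 5 called members (131 of all genes). The numbers were not shown to pair single libraries, there or in other groups. For the other RPE comparisons the block gave 3 for *Mertk*-/-V2 (706 of all genes), 5 for *Mertk*-/-V3 (5619), 5 for *Mertk*-/-V1 against the other knockouts (2329) and 3 for *Mertk*-/-V2 against *Mertk*-/-V3 (552). It gave 0 for *Mertk*-/-V1 BMDMs, and 1 and 4 for the tissue differences of *Mertk*-/-V2 and *Mertk*-/-V3. The member with the lowest B6 WT mean was *Zbp1* in BMDMs, at 56.7 normalized counts.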

Other observations

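Genes outside the members were looked at after their values were seen. In RPE the interferon genes themselves were at or near 0 in B6 WT. *Ifnb1*, the type I interferon beta, was listed at 0 in all 6 B6 WT libraries and at 14.5, 5.94 and 20.6 normalized counts in the *Mertk*-/-V2 libraries. *Ifnl2* and *Ifnl3*, type III interferons that signal through the same complex with STAT2 and IRF9, were at 95.1, 29.7 and 69.7 and at 92.7, 50.1 and 49.0 in the *Mertk*-/-V2 libraries. *Ifnl2* was at 0 in the 6 B6 WT and the 3 *Mertk*-/-V3 libraries and above 0 in 2 *Mertk*-/-V1 libraries, at 12.8 in replicate 1 and 0.95 in replicate 2. *Ifnl3* was also at 0 in the B6 WT and *Mertk*-/-V3 libraries, and at 23.3 in *Mertk*-/-V1 replicate 1 alone. *Ifnb1* was at 0.80 in that same library and at 1.12 in *Mertk*-/-V3 replicate 1, and at 0 in the other libraries of these groups. The log2 fold change in *Mertk*-/-V2 against B6 WT was 5.89 ± 0.66 for *Ifnl2* and 5.96 ± 0.77 for *Ifnl3*. Both genes reached the mean needed for testing only through the *Mertk*-/-V2 libraries, and both were picked after their values were seen. A p-value from these libraries is therefore not a fair test of the difference, and none is given. The 2 *Ifnl* genes are near-identical copies, and how their reads were divided is uncertain.

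The 8 immediate early genes were read beside the members in both tissues. In *Mertk*-/-V1 RPE all 8 were higher than in B6 WT (median 0.80, 4 with an unadjusted p under 0.05, beside 6.81% of all genes). They were also higher than in the other knockouts (median 0.95, 7 with an unadjusted p under 0.05, beside 9.56%), and none was called in either comparison. In BMDMs *Fosb* (-4.14 ± 0.32), *Dusp1* (-2.98 ± 0.12) and *Fos* (-2.60 ± 0.15) were the most changed in *Mertk*-/-V1. There 5 of the 8 were called lower and 1 higher, when 7.07% of all genes were called. In *Mertk*-/-V2 BMDMs 4 were called lower and 1 higher, when 4.61% of all genes were called. In *Mertk*-/-V3 BMDMs none was called, with 3 at an unadjusted p under 0.05, beside 15.9% of all genes. The members had median log2 fold changes of 0.30, 0.22 and 0.31 in the same comparisons.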
